A study of Arabidopsis thaliana with 9 samples.

Results

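Seedling transcriptomes of Arabidopsis thaliana libraries labelled with a mutant allele of RNA polymerase V were compared, gene by gene, with those labelled with a mutant allele of RNA polymerase IV. Levels are FPKM, fragments scaled to transcript length and to the mapped fragments of a library. A gene entered the comparison with 1 FPKM or more in 3 or more of the 6 libraries, which held for 17787 of the 37898 genes in the deposited table. The groups were nrpe1-11, an allele of NRPE1 in the Col-0 ecotype, and nrpd1-3, an allele of NRPD1 in the same ecotype, each with n = 3 libraries of polyadenylated RNA from seedlings aged 2 weeks. The treatment label was Mock in each. The growth cycle was shared by all libraries: the lit phase lasted 16 h (22 °C) and the dark phase 8 h (18 °C). Wild-type Col-0 seedlings of the same age and treatment (n = 3) stood outside the contrast, and their values are given beside it. Each mutant was represented by 1 allele, so the mutation and anything else carried by that line cannot be told apart. The comparison sets loss of Pol V beside loss of Pol IV, provided that the libraries labelled nrpd1-3 lack Pol IV, which these RNA values do not show.

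Plants have a pair of RNA polymerases related to Pol II that serve RNA-directed DNA methylation. Pol IV, with NRPD1 as its largest subunit, makes the precursors of small interfering RNAs. Pol V, with NRPE1 as its largest subunit, makes longer noncoding transcripts at the target loci, where Argonaute proteins loaded with those small RNAs pair with the transcripts and the methyltransferase DRM2 is recruited. Loss of either polymerase is known to remove methylation at many shared targets, mostly transposons and repeats.

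Log2 differences are nrpe1-11 minus nrpd1-3 on the log2(FPKM + 1) scale, which understates the change of genes with low FPKM. A gene is called at an adjusted p under 0.05 in limma, with Benjamini-Hochberg adjustment over all 17787 genes. No label ties the libraries to separate plants, so p-values measure only how these libraries spread, which may be technical. The sources used here give no strandedness, and reads of overlapping loci may be mixed. The hour of collection was also not given.

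The libraries separated by genotype. The first principal component of the 6 libraries held 58.4% of the variance and placed nrpe1-11 at 29.8 to 32.6 and nrpd1-3 at -31.3 to -30.4. The second component, with 13.1%, set nrpd1-3 replicate 2 at -28.3 apart from the other libraries at -5.05 to 18.6. Between 17432 and 17495 genes reached an FPKM of 1 in the nrpe1-11 libraries and between 17186 and 17604 in nrpd1-3. Ribosomal RNA took up to 19.4% of the FPKM in nrpe1-11 and 14.2% to 19.7% in nrpd1-3, with the highest share in nrpd1-3 replicate 2. The sources used here do not give read numbers. Of the 17 root marker genes, 0 were listed at 0 in all libraries of either group, and they summed to 691 to 720.0 FPKM in nrpe1-11 and 517 to 609.9 FPKM in nrpd1-3. Pollen, seed and flower markers summed to 3.34 to 4.46 FPKM in nrpe1-11, with 11 of 15 at 0 in all libraries, and to 2.48 to 2.62 FPKM in nrpd1-3, with 10 of 15 at 0.

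The mutated genes were read first. NRPE1 had 0.624, 0.254 and 0.339 FPKM in the nrpe1-11 libraries, against 1.4, 1.28 and 1.19 FPKM in the libraries labelled nrpd1-3 and 0.846 ± 0.0166 FPKM in Col-0 (mean ± SD, n = 3). It fell by 0.71 on the log2 scale (SE 0.21, adjusted p = 0.0296 in limma), and the groups did not overlap. NRPD1 had 1.56, 1.98 and 2.3 FPKM in nrpe1-11, against 0.674, 0.67 and 0.947 FPKM in the libraries labelled nrpd1-3 and 0.703 ± 0.307 FPKM in Col-0. Its difference was 0.74 (SE 0.22, adjusted p = 0.0309 in limma). NRPD1 RNA was not below Col-0 in the libraries labelled nrpd1-3. Some genes, such as NRPE1 above and GNA1 and HYH below, had separate ranges in these libraries and Col-0, but none was called. Over 17787 genes, limma called 3952 between nrpe1-11 and Col-0 (22.2%). Between the libraries labelled nrpd1-3 and Col-0 it called 0 (0.0%), with 1280 (7.2%) at an unadjusted p under 0.05. The count stayed at 0 in each of the 17 other settings that hold Col-0, with 693 to 2141 genes at an unadjusted p under 0.05. Across genes, Pearson's r of log2(FPKM + 1) was 0.969 to 0.981 between nrpd1-3 and Col-0 libraries and 0.976 to 0.980 among nrpd1-3 libraries. The genotype of the libraries labelled nrpd1-3 is thus not verified by these data, and whether the differences below are from a Pol IV mutant or from seedlings with Pol IV cannot be told apart. Below, nrpd1-3 stands for the libraries so labelled. NRPE1 reached 1 FPKM only in nrpd1-3 and NRPD1 only in nrpe1-11, so the filter fixed both directions. The NRPE1 call was lost without nrpe1-11 replicate 2 or 3 or without any 1 nrpd1-3 library (differences of -0.74 to -0.63), and the NRPD1 call without nrpe1-11 replicate 2 or 3 or nrpd1-3 replicate 1 or 2 (0.65 to 0.72).

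In all, 2670 of the 17787 genes were called, or 15.0%. Of these, 1145 were higher in nrpe1-11 (6.44% of the genes tested) and 1525 lower (8.57%). Counts in the gene lists below are to be read beside these shares. The median difference of all genes was 0.07. Large differences were mostly falls: 60 called genes were at least 2-fold higher and 622 at least 2-fold lower on the log2(FPKM + 1) scale, together 3.83% of the genes tested, and at least 4-fold the counts were 3 and 133. The libraries of both groups did not overlap in 6009 genes (33.8%), 3443 of them higher and 2566 lower. Without nrpd1-3 replicate 2, 695 genes were called higher and 1480 lower. The count of genes called higher was also below the full count by more than 1.5 times without nrpe1-11 replicate 2 (748) or replicate 3 (682). Some directions were fixed by the filter. It was passed through nrpd1-3 alone by 199 genes, of which 165 were called lower and 0 higher, and through nrpe1-11 alone by 88 genes, of which 33 were called higher and 0 lower. Over the 17500 other genes 1112 were called higher and 1360 lower. Of the genes named below, FRK1, AT4G12500, RMG1, QQS, CCA1, LNK3, IMA3 and CRK14 passed through nrpd1-3 alone. So did the genes listed at 0 in all nrpe1-11 libraries. AT5G41830, PDF1.5, AT1G59930 and AT5G63250 passed through nrpe1-11 alone. The values of all these genes are a description. The share of genes called depended on level: it was 8.40% below a mean of 2 FPKM and 45.5% at 100 FPKM or more. The share called higher was 1.83% and 23.6% at these levels.

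**Figure D1:**
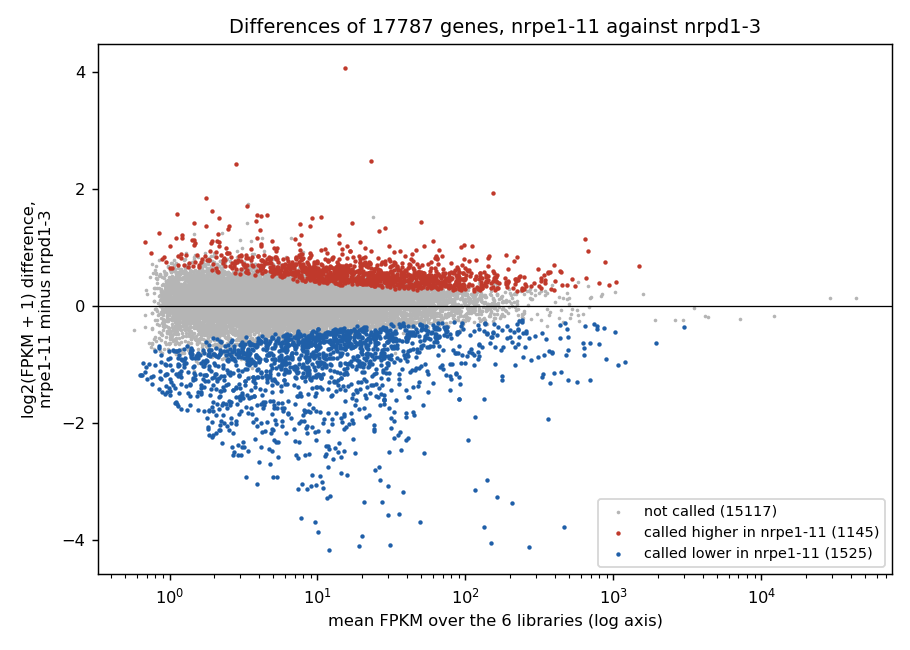
Log2(FPKM + 1) difference, nrpe1-11 minus nrpd1-3 (vertical axis), against the mean FPKM over the 6 libraries (horizontal log axis) for each of 17787 genes; red points were called higher in nrpe1-11 (1145), blue points lower (1525), grey points were not called. The falls reach a difference of -4.17, while 3 of the rises pass 2 on this scale.

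The promoters of 6 genes that recur below are shown first, because their letters hold the motifs counted later. Each is the 250 bases before the annotated start of the gene in the TAIR10.1 reference, written 5′ to 3′ on the gene's strand, and none overlaps another annotated locus. FRK1 (chr2:8329945-8330194, minus strand) and the chitinase-family gene AT2G43620 (chr2:18095094-18095343, minus strand) carry the W-box, TTGACC or TTGACT on either strand, the motif that WRKY transcription factors bind. Capitals mark the W-box.
FRK1: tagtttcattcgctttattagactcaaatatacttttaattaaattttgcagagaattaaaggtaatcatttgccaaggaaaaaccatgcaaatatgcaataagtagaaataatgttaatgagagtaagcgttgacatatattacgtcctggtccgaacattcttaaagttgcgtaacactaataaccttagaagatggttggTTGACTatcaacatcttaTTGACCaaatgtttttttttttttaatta
AT2G43620: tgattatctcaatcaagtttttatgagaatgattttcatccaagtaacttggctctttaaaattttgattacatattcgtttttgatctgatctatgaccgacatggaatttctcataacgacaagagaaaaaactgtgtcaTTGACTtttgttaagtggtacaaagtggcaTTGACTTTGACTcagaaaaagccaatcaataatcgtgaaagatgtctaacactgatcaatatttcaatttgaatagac

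The morning clock genes CCA1 (chr2:19245341-19245590, plus strand) and LNK3 (chr3:3923265-3923514, plus strand) carry the G-box, CACGTG, a palindrome bound by light-related bHLH and bZIP factors. Capitals mark the G-box.
CCA1: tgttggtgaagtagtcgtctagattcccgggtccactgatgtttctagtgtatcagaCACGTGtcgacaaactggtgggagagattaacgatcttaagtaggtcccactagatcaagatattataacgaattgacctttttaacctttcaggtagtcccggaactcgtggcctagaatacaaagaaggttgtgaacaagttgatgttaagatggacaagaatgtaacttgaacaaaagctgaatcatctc
LNK3: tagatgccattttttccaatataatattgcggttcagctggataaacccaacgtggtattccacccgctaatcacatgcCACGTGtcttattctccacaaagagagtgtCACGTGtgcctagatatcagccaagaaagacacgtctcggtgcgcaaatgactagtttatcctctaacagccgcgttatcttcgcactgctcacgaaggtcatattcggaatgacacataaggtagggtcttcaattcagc

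The evening genes GRP7 (chr2:9266558-9266807, minus strand) and BOA (chr5:24003638-24003887, plus strand) carry the evening element, AAAATATCT on either strand, which CCA1 and its relatives bind. Capitals mark the evening element, which reads AGATATTTT where it lies on the other strand.
GRP7: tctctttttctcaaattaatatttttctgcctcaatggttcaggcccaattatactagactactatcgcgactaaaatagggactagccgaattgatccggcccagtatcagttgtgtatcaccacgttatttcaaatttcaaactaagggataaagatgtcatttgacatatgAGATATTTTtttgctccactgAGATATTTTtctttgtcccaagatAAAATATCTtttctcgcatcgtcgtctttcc
BOA: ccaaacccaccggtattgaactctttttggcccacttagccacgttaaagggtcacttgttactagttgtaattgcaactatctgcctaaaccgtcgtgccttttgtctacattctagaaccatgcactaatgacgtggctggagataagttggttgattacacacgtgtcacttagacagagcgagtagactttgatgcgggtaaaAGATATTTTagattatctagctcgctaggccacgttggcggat

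Of 25 tested genes of the methylation pathway, 3 were higher (NRPD1, NRPE5 and FDM1), 1 was lower (NRPE1) and 21 were not called. The share called, 16.0%, was near the 15.0% of all genes, and the median difference was 0.21 against 0.07. This share includes the mutated pair, whose directions the filter fixed. Of the 23 other members 2 were higher and 0 lower. NRPE5, a subunit particular to Pol V, had 9.77, 11.5 and 9.79 FPKM in nrpe1-11, against 6.52, 6.78 and 5.32 FPKM in nrpd1-3 (0.66, SE 0.15, adjusted p = 0.00769 in limma). A locus on the opposite strand overlaps NRPE5. FDM1, an RNA-binding partner of IDN2 in the pathway, had 15.7, 16.8 and 15.2 FPKM in nrpe1-11 and 11.4, 8.72 and 12.3 FPKM in nrpd1-3 (0.53, adjusted p = 0.0151 in limma). Its call was lost without nrpe1-11 replicate 2 (0.49) or nrpd1-3 replicate 2 (0.39), and without nrpd1-3 replicate 2 1 gene of the list was called higher. The trans-acting siRNA and microRNA machinery had 0 of 16 members called in limma. The member with the smallest p, the TAS1B precursor, had 2.72, 3.24 and 3.48 FPKM in nrpe1-11 and 1.89, 1.8 and 1.89 FPKM in nrpd1-3 (0.53, 95% interval 0.02 to 1.05, adjusted p = 0.165 in limma), with a locus on the opposite strand.

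The demethylase gene ROS1 was lower in nrpe1-11. RMG1 and QQS, listed for silencing by methylation, a relation opposite to that of ROS1, were lower too. Both passed the filter through nrpd1-3 alone, so their direction was fixed. ROS1, a DNA demethylase whose transcription is known to need methylation beside its promoter, had 0.98, 0.887 and 1.11 FPKM in nrpe1-11, against 4.41, 4.44 and 4.22 FPKM in nrpd1-3 and 4.03 ± 0.698 FPKM in Col-0. It was 4.4-fold lower (log2 difference -1.43, SE 0.18, adjusted p = 2.97e-05 in limma) and was the 1 called gene among 15 of methylation maintenance and demethylation. The immune receptor gene RMG1, which ROS1 is known to keep active, had 0.205, 0.4 and 0.249 FPKM in nrpe1-11 and 2.66, 2.15 and 2.12 FPKM in nrpd1-3 (-1.36). QQS, an orphan gene known to affect starch, had 0 FPKM listed for all 3 nrpe1-11 libraries, against 3.41, 1.26 and 1.1 FPKM in nrpd1-3. In all 3 genes the nrpe1-11 libraries lay below the other genotypes. Of 4 tested genes listed for silencing by methylation, the 2 that reached 1 FPKM in both genotypes were not called.

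**Figure D2:**
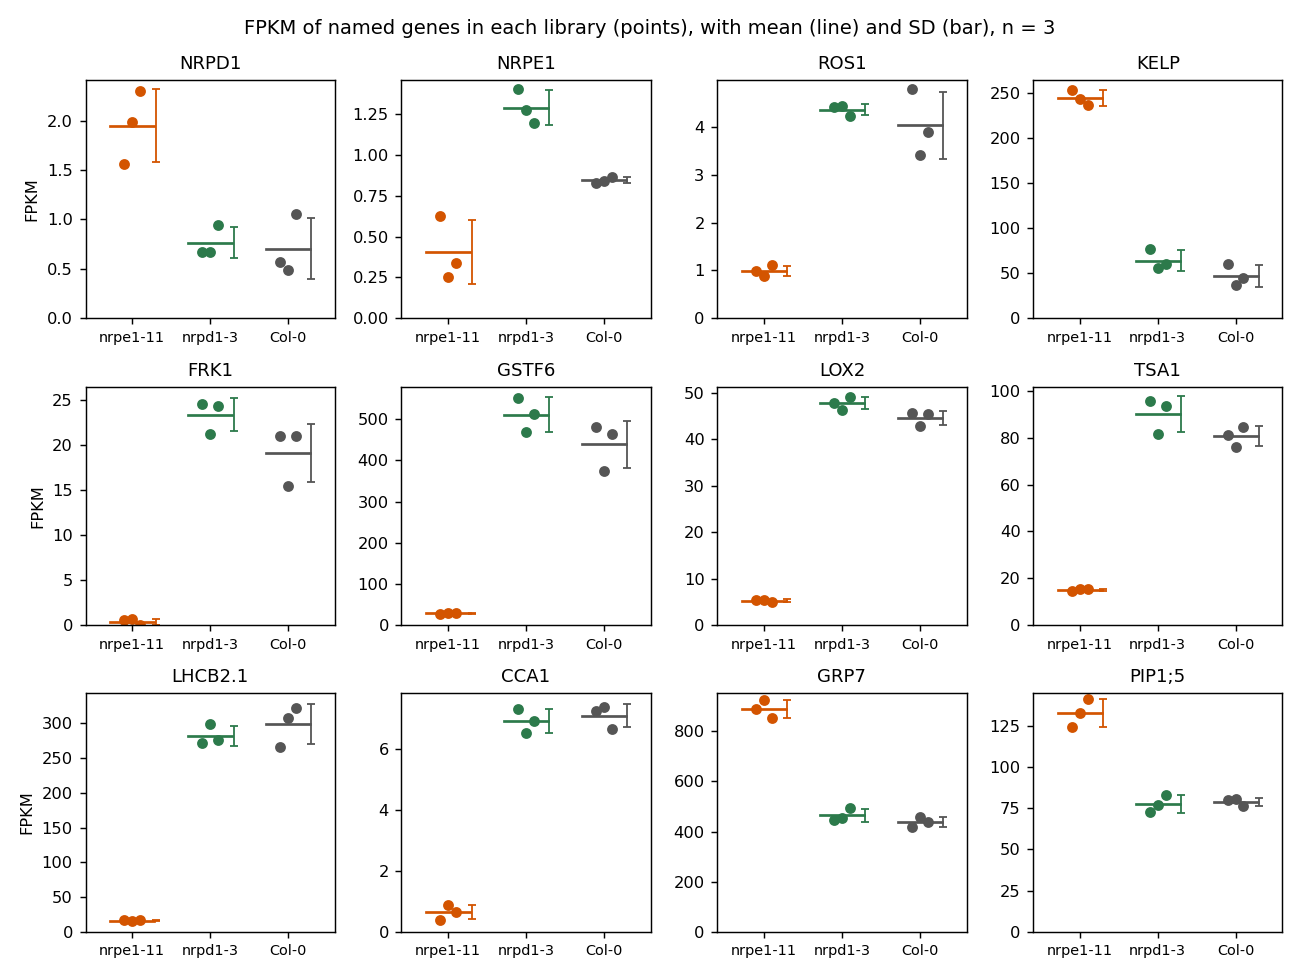
FPKM of 12 genes (vertical axes, each from 0) in the 3 libraries of nrpe1-11, nrpd1-3 and Col-0 (points), with the mean (line) and SD (bar). In FRK1, GSTF6, LOX2, TSA1, LHCB2.1, CCA1 and ROS1 the nrpe1-11 libraries lie below all others, in KELP, GRP7 and PIP1;5 above all others.

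The largest falls joined immunity genes with light-harvesting genes. FRK1, a receptor-like kinase induced by bacterial flagellin, had 0.503, 0.639 and 0 FPKM in nrpe1-11, against 24.5, 21.2 and 24.4 FPKM in nrpd1-3 and 19.1 ± 3.19 FPKM in Col-0. Its difference was -4.17 (SE 0.19). GSTF6, a glutathione transferase induced by stress, had 27.7, 28.6 and 29 FPKM in nrpe1-11 and 553, 469 and 513 FPKM in nrpd1-3, an 18.0-fold ratio (-4.12, adjusted p = 4.05e-13 in limma). CYP71A13, which makes indole-3-acetonitrile for the phytoalexin camalexin, had 1.16, 1.26 and 1.23 FPKM in nrpe1-11 and 38, 35.8 and 37.8 FPKM in nrpd1-3. In these 3 genes every nrpe1-11 library lay far below every nrpd1-3 library. AT2G43620 had 3.09, 3.16 and 1.55 FPKM in nrpe1-11 and 58.8, 63.2 and 55 FPKM in nrpd1-3. The berberine-bridge-enzyme family gene AT1G26380 had 2.06, 0.539 and 2.6 FPKM in nrpe1-11 and 40.1, 34.7 and 40 FPKM in nrpd1-3. The legume-lectin family gene AT3G15356 had 14.6, 18.4 and 18.5 FPKM in nrpe1-11 and 257, 237 and 250 FPKM in nrpd1-3. Lipid-transfer-type genes AT4G12500 (-3.87) and AT4G12490 (-3.70) and the antenna genes LHCB2.1 (-4.05) and LHCB1.1 (-3.78) complete the 10. FRK1, CYP71A13 and AT4G12490 overlap a locus on the opposite strand. In Col-0, GSTF6 had 481, 374 and 464 FPKM and AT2G43620 50, 62.5 and 56.5 FPKM, above every nrpe1-11 library.

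The largest rises were fewer and mostly of genes without an assigned role. AT4G02795, an uncharacterized RNA, had 32.4, 28 and 28.7 FPKM in nrpe1-11 and 1.77, 0 and 1.21 FPKM in nrpd1-3 (4.07, SE 0.34, adjusted p = 5.79e-07 in limma). It overlaps another locus on the same strand, so its reads cannot be placed with certainty. The noncoding RNA AT1G67105 had 44.7, 34.7 and 38.8 FPKM in nrpe1-11 and 8.93, 4.75 and 5.69 FPKM in nrpd1-3 (2.47). KELP, of a transcriptional coactivator family, had 254, 244 and 236 FPKM in nrpe1-11, against 77.1, 55.5 and 59.7 FPKM in nrpd1-3 and 47.3 ± 12.0 FPKM in Col-0 (1.93, adjusted p = 2.41e-07 in limma). It was the most abundant RNA of these 10, at 3.82 times its nrpd1-3 level, and overlaps a locus on the opposite strand. MAF5, a MADS-box repressor of flowering, had 6.79, 3.71 and 8.46 FPKM in nrpe1-11 and 0.655, 1.66 and 2.09 FPKM in nrpd1-3 (1.56, adjusted p = 0.00221 in limma). The other rises were AT5G41830, of the RNI-like family (2.42), the defensin PDF1.5 (1.84), the MADS-box gene AT1G59930 (1.62), the X8-domain gene AT5G63250 (1.57) and the noncoding RNA AT2G01422 (1.56). GNA1, an acetyltransferase of amino-sugar synthesis, was the exception among the 10 in its wild-type level. It had 6.7, 8.94 and 4.15 FPKM in nrpe1-11, 0.504, 2.23 and 2.34 FPKM in nrpd1-3 (1.53, adjusted p = 0.00182 in limma) and 5.29, 4.21 and 3.76 FPKM in Col-0, so its nrpd1-3 libraries lay below both other genotypes. GNA1 overlaps a locus on the opposite strand.

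Most photosynthesis genes were lower. Of the 20 light-harvesting antenna genes, 18 fell and 0 rose (median -0.96, against 0.07 over all genes). Of 29 subunits of the photosystems, electron transport and ATP synthase, 26 fell and 0 rose (median -0.62), against 8.57% of all genes called lower. LHCB2.1, a major antenna protein of photosystem II, had 16.3, 14.9 and 17 FPKM in nrpe1-11 and 272, 298 and 276 FPKM in nrpd1-3. LHCB2.2 had 27, 30 and 33.6 FPKM in nrpe1-11 and 290, 327 and 277 FPKM in nrpd1-3. Since near-identical copies share reads, the LHCB2 copies were also summed, which gave 51.1 ± 3.91 FPKM in nrpe1-11 and 646 ± 44.1 FPKM in nrpd1-3, 12.6-fold lower. LHCB1.1 fell 13.9-fold, to 62.4 ± 4.67 FPKM in nrpe1-11 against 868 ± 11.2 FPKM in nrpd1-3, but the sum with its neighbours LHCB1.2 and LHCB1.3 was 4278 ± 455 FPKM in nrpe1-11 and 6060.3 ± 366 FPKM in nrpd1-3, 1.42-fold lower. In sum, the LHCB2 copies fell far more than these LHCB1 copies. LHCB1.3 was not called. Since the values of single LHCB1 copies depend on how shared reads were divided, a difference between LHCB1.1 and its copies cannot be told.

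Falls outside the antenna were smaller. PSBS, the photosystem II protein that dissipates excess light, had 66.2, 60.6 and 70.1 FPKM in nrpe1-11 and 200, 199 and 201 FPKM in nrpd1-3 (-1.60, SE 0.08, adjusted p = 2.54e-09 in limma). The photosystem I subunit genes PSAO (-1.13) and PSAD-2 (-1.14, with a locus on the same strand) also fell. In the Calvin cycle, 12 of 18 genes fell and 0 rose (median -0.46). RCA, the activase of Rubisco, had 393, 387 and 431 FPKM in nrpe1-11 and 971, 1008 and 949 FPKM in nrpd1-3 (-1.27, adjusted p = 1.12e-08 in limma). The small Rubisco subunit genes summed to 4255 ± 388 FPKM in nrpe1-11 and 5981 ± 123 FPKM in nrpd1-3, 1.41-fold lower. Chlorophyll synthesis had 11 of 18 genes lower and 0 higher (median -0.52). GUN5, the magnesium chelatase subunit that also signals from plastid to nucleus, had 46.3, 41.4 and 46.4 FPKM in nrpe1-11 and 138, 130 and 140 FPKM in nrpd1-3 (-1.58). CAO, which makes chlorophyll b, fell by 1.48. CAO, CRD1 (-0.76) and RCA overlap a locus on the opposite strand. In bulk seedling RNA, fewer cells of a type and less RNA per cell cannot be told apart. Root marker sums were higher in nrpe1-11, as given above, and their part in the photosynthesis result was not tested.

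Called clock genes mostly split by the time of day at which they are known to peak. The plant clock is a loop in which the morning factors CCA1 and LHY repress evening genes, and evening factors such as TOC1 repress the morning genes in turn. Of 12 morning genes 9 fell and 0 rose (median -1.56). Of these, 4 passed the filter through nrpd1-3 alone, and 5 of the other 8 fell. Of 14 evening genes and outputs 8 rose, 1 fell and 5 were not called (median 0.53), against 6.44% of all genes called higher. CCA1 had 0.402, 0.88 and 0.654 FPKM in nrpe1-11, against 7.31, 6.5 and 6.9 FPKM in nrpd1-3 and 7.09 ± 0.376 FPKM in Col-0 (-2.27, SE 0.17). LNK3, a coactivator that works with the RVE factors of the morning, had 0.371, 0.809 and 0.266 FPKM in nrpe1-11 and 11.4, 8.38 and 10.6 FPKM in nrpd1-3 (-2.92). Its relative LNK2 had 5.36, 5.44 and 5.2 FPKM in nrpe1-11 and 31.8, 27.6 and 29.4 FPKM in nrpd1-3 (-2.27). LNK2 and LNK3 overlap loci on the opposite strand.

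Evening genes were higher by smaller factors. GRP7, an RNA-binding clock output, had 888, 926 and 853 FPKM in nrpe1-11, against 446, 453 and 495 FPKM in nrpd1-3 and 438 ± 19.1 FPKM in Col-0 (0.93, SE 0.08, adjusted p = 4.78e-07 in limma). BOA, a relative of the evening-complex protein LUX, had 10, 9.66 and 10.6 FPKM in nrpe1-11 and 4.07, 4.04 and 3.99 FPKM in nrpd1-3 (1.14, adjusted p = 0.00014 in limma), with a locus on the opposite strand. TOC1 had 54.9, 48.1 and 50.1 FPKM in nrpe1-11 and 33.7, 29.5 and 32.5 FPKM in nrpd1-3 (0.66). In none of these 3 did the groups overlap. The 1 evening gene that fell was GI (-0.47), a photoperiod gene peaking late in the day. Without nrpd1-3 replicate 2, 9 morning genes were lower, and 7 evening genes were higher and 2 lower.

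Photoperiod and light genes were mixed. Among 16 photoperiod and flowering genes 5 fell, 2 rose and 9 were not called. Over all genes, 8.57% were called lower and 6.44% higher. Of the 2 that rose, 1, not MAF5, passed the filter through nrpe1-11 alone, so its direction was fixed. CDF3, a repressor of the flowering regulator CO, averaged 2.24 ± 0.825 FPKM in nrpe1-11 and 10.4 ± 0.440 FPKM in nrpd1-3 (-1.85, adjusted p = 1.51e-06 in limma). COL1, a relative of CO, fell by 1.18, and MAF5 rose as given above. Among 19 light-signalling genes 5 fell, 1 rose and 13 were not called. PIF7 (-1.16), a phytochrome-interacting factor, SPA1 (-0.96), a repressor of light responses, and HYH (-1.68), a relative of the light factor HY5, were the falls with the smallest p. HYH had 4.05, 4.33 and 0.903 FPKM in nrpe1-11, 11.2, 10.3 and 11.2 FPKM in nrpd1-3 and 5.14, 4.79 and 7.76 FPKM in Col-0, so that nrpd1-3 lay above both other genotypes. COL1 and PIF7 overlap loci on the opposite strand.

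**Figure D3:**
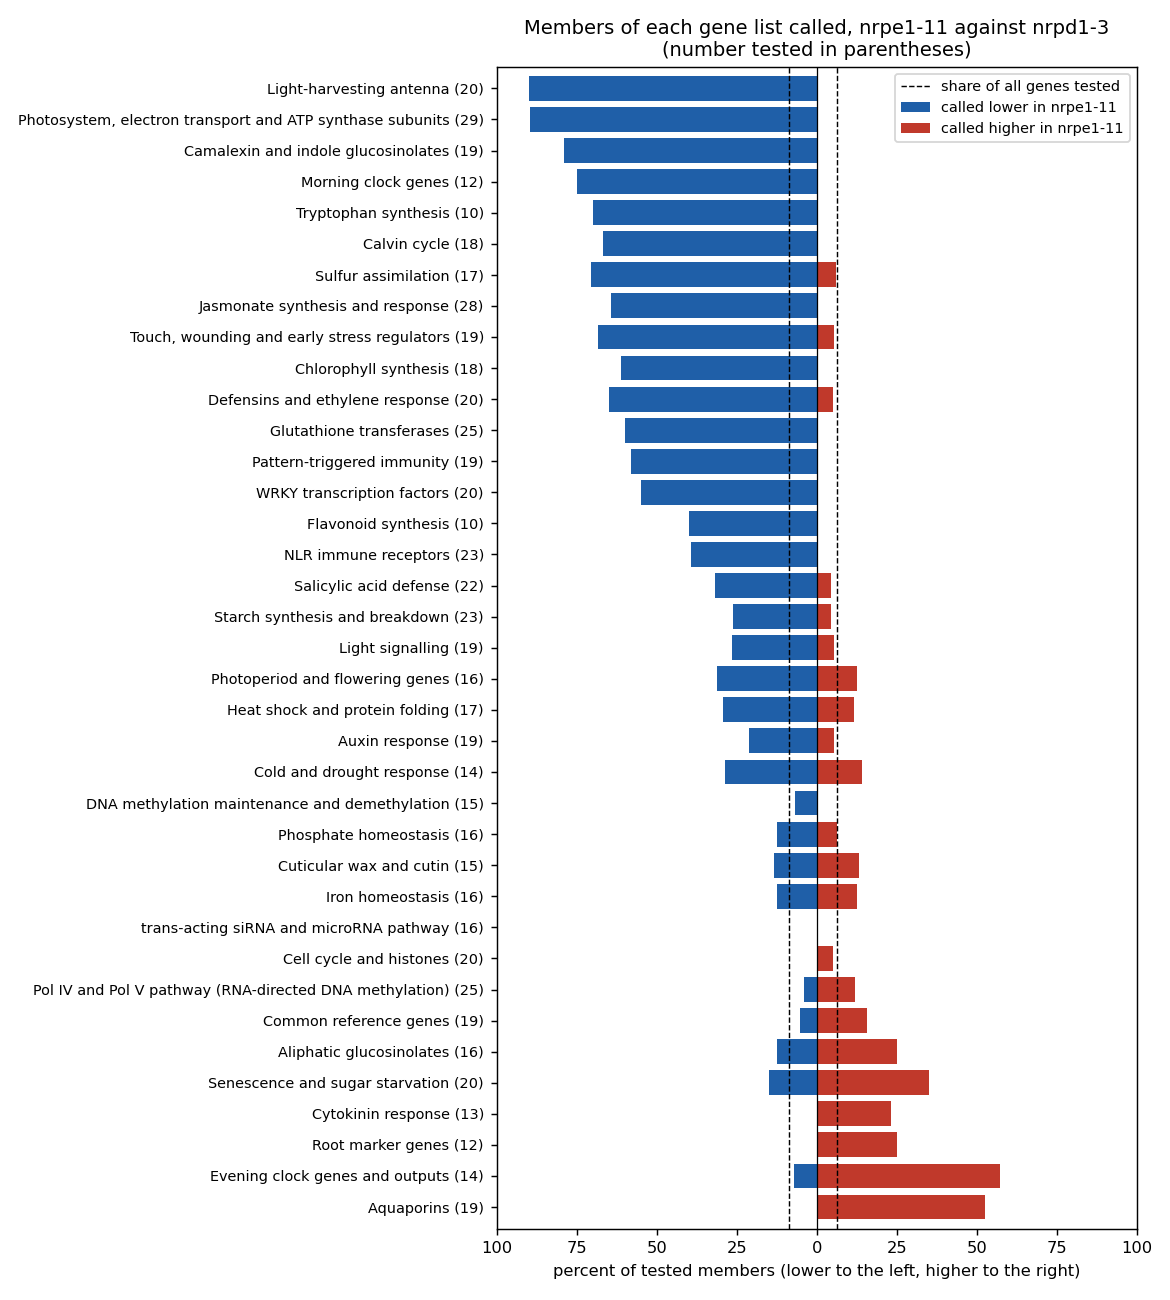
Percent of the tested members of each gene list (rows, with the number tested) called lower (blue, to the left) or higher (red, to the right) in nrpe1-11 against nrpd1-3; dashed lines mark 8.57% lower and 6.44% higher over all 17787 genes. Lists with fewer than 5 tested members are left out; the antenna list is at the top with 18 of 20 lower, aquaporins at the bottom with 52.6% higher.

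Many jasmonate genes were lower, among them synthesis enzymes and response genes. Jasmonate is made from chloroplast lipids by LOX2, AOS, the AOC enzymes and OPR3, and JAZ proteins repress the response until the hormone removes them. Of 28 tested members 18 fell, 0 rose and 10 were not called (median -0.66), against 8.57% of all genes called lower. Of the 25 that reached 1 FPKM in both genotypes, 15 fell. LOX2 had 5.37, 5.39 and 4.9 FPKM in nrpe1-11, against 47.8, 46.3 and 49.1 FPKM in nrpd1-3 and 44.5 ± 1.51 FPKM in Col-0 (-2.97, SE 0.10, adjusted p = 1.46e-11 in limma). AOC2 had 4.99, 4.5 and 6.71 FPKM in nrpe1-11 and 44.8, 41.9 and 43 FPKM in nrpd1-3 (-2.80). AOC1, AOC2 and AOC3 summed to 13.6 ± 1.4 FPKM in nrpe1-11 and 62.8 ± 3.95 FPKM in nrpd1-3, 4.63-fold lower. AOC4, not in that sum, was not called (0.05). JAZ1, a repressor that jasmonate itself induces, had 7.45, 6.3 and 6.79 FPKM in nrpe1-11 and 28.7, 25.2 and 26.7 FPKM in nrpd1-3 (-1.83). The receptor gene COI1 (0.29), chosen after its value was seen, was not called.

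Defensins and the ethylene response factors above them were also lower, in 13 of 20 members, with 1 higher and 6 not called (median -1.11). Of the 19 that reached 1 FPKM in both genotypes, 12 fell and 1 rose. PDF1.2c, an antifungal defensin, had 0.813 to 1.11 FPKM in nrpe1-11 and 14.2 to 15.7 FPKM in nrpd1-3 (-3.04, SE 0.14, adjusted p = 7.88e-10 in limma). The PDF1.2 and PDF1.3 copies summed to 10.8 ± 0.257 FPKM in nrpe1-11 and 76.0 ± 12.3 FPKM in nrpd1-3, 7.04-fold lower. ERF2, an ethylene response factor, had 2.22, 3.78 and 3.34 FPKM in nrpe1-11 and 13.8, 14.4 and 11.8 FPKM in nrpd1-3 (-1.82). The 1 member that rose was EIN3 (0.35), the central transcription factor of ethylene signalling. It stood opposite in direction to the 13 genes that fell.

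The route from tryptophan to indole defense compounds was lower at most steps. Tryptophan feeds CYP79B2 and CYP79B3, whose product goes to camalexin through CYP71A12, CYP71A13 and PAD3 or to indole glucosinolates through CYP83B1. Of 10 tested tryptophan synthesis genes 7 fell and 0 rose (median -1.51), and the 3 not called were the PAI isomerase genes. TSA1, a tryptophan synthase subunit, had 14.5, 15.3 and 15.3 FPKM in nrpe1-11, against 95.6, 81.6 and 93.5 FPKM in nrpd1-3 and 80.7 ± 4.26 FPKM in Col-0 (-2.51, SE 0.09, adjusted p = 6.1e-11 in limma). ASA1, the committing enzyme, had 13.3, 13 and 12.2 FPKM in nrpe1-11 and 53.4, 53 and 53.7 FPKM in nrpd1-3 (-1.97), and its partner ASB1 fell by 2.21. ASA1 and ASB1 overlap other loci, ASB1 also on the same strand.

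Downstream, 15 of 19 camalexin and indole glucosinolate genes fell and 0 rose (median -0.99). Of the 18 that reached 1 FPKM in both genotypes, 14 fell. CYP79B2 had 9.11, 7.3 and 8.9 FPKM in nrpe1-11 and 48.2, 55.8 and 52.9 FPKM in nrpd1-3 (-2.50, adjusted p = 2.74e-10 in limma). CYP71A12 and CYP71A13, which are close copies, summed to 5.03 ± 0.644 FPKM in nrpe1-11 and 93.1 ± 4.33 FPKM in nrpd1-3, 18.5-fold lower. Aliphatic glucosinolates, which come from methionine, behaved otherwise: of 16 genes 4 rose, 2 fell and 10 were not called (median 0.19). Of the 2 that fell, 1 passed the filter through nrpd1-3 alone, so its direction was fixed. MAM1, which elongates the methionine chain, had 78.9, 83.3 and 86.1 FPKM in nrpe1-11 and 46.9, 45.9 and 46.7 FPKM in nrpd1-3 (0.82, adjusted p = 4.67e-06 in limma). MAM3 rose by 0.50 and the sulfotransferase SOT17 fell by 0.93, a call lost without nrpd1-3 replicate 1 (-0.83) or without the filter on low values (adjusted p = 0.0754 in limma).

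Immune signalling genes followed the largest falls in part. In pattern-triggered immunity 11 of 19 genes fell, 0 rose and 8 were not called (median -0.82). Leaving out the 3 that reached 1 FPKM only in nrpd1-3, 8 of 16 fell. NHL10, induced by flagellin, had 2.07, 0.809 and 2.42 FPKM in nrpe1-11 and 14.7, 17 and 12.5 FPKM in nrpd1-3 (-2.55, SE 0.21, adjusted p = 3.45e-07 in limma). PROPEP3, the precursor of a danger peptide, had 1.85, 0.849 and 1.04 FPKM in nrpe1-11 and 27.6, 11.8 and 15.8 FPKM in nrpd1-3 (-3.05). The flagellin receptor gene FLS2 (-0.01), chosen after its value was seen, was not called. Of 20 WRKY factors 11 fell and 0 rose (median -0.74). Leaving out the 1 that reached 1 FPKM only in nrpd1-3, 10 of 19 fell. WRKY40, an early-induced factor, averaged 1.64 ± 0.706 FPKM in nrpe1-11 and 19.8 ± 2.14 FPKM in nrpd1-3 (-3.01, adjusted p = 1.94e-08 in limma). WRKY33, which switches on camalexin genes, had 8.79, 13 and 12.5 FPKM in nrpe1-11 and 53.1, 46 and 54.6 FPKM in nrpd1-3 (-2.09). WRKY53 fell by 2.17. These 3 WRKY genes overlap loci on the opposite strand.

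Salicylic acid genes were lower in 7 of 22 members, with 1 higher and 14 not called (median -0.34). The share lower was 31.8%, against 8.57% of all genes. ICS1, which makes most of the pathogen-induced salicylic acid, had 2.76, 3.26 and 4.03 FPKM in nrpe1-11 and 8.56, 8.02 and 7.21 FPKM in nrpd1-3 (-1.05, adjusted p = 0.000318 in limma). AZI1, a lipid-transfer-type protein of systemic immunity, had 49, 44.2 and 53.3 FPKM in nrpe1-11 and 188, 175 and 191 FPKM in nrpd1-3 (-1.90). PR1, the classic marker of salicylic acid signalling, moved the other way. It had 19.5, 21.6 and 25.9 FPKM in nrpe1-11, against 13.2, 8.83 and 14.9 FPKM in nrpd1-3 and 11.2 ± 1.91 FPKM in Col-0 (0.83, SE 0.18, adjusted p = 0.00404 in limma), with no overlap. Of 23 NLR receptor genes 9 fell and 0 rose (median -0.17). Leaving out the 1 that reached 1 FPKM only in nrpd1-3, 8 of 22 fell. RPP4 averaged 7.37 ± 0.253 FPKM in nrpe1-11 and 17.1 ± 2.45 FPKM in nrpd1-3 (-1.10), and WRR4 fell by 0.94. NLR genes have close relatives, so the division of reads among them is uncertain. Without the filter on low values, 3 salicylic acid genes were called lower.

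Stress regulators and detoxification genes were lower too. Of 19 touch, wounding and early stress genes 13 fell and 1 rose (median -0.78). Of the 16 that reached 1 FPKM in both genotypes, 10 fell. ZAT10, a zinc-finger repressor induced by many stresses, had 1.53, 1.7 and 1.74 FPKM in nrpe1-11 and 21.8, 19.8 and 15.7 FPKM in nrpd1-3 (-2.91, SE 0.15, adjusted p = 1.53e-09 in limma). TCH3, a calmodulin-like protein induced by touch, had 108, 108 and 95.2 FPKM in nrpe1-11 and 260, 242 and 247 FPKM in nrpd1-3 (-1.26), with a locus on the opposite strand. The zinc-finger gene SZF1 fell by 1.57. Of 25 glutathione transferases, which conjugate glutathione to toxic compounds, 15 fell and 0 rose (median -0.63). Leaving out the 1 that reached 1 FPKM only in nrpd1-3, 14 of 24 fell. GSTF6 and its neighbour GSTF7 summed to 64.5 ± 5.21 FPKM in nrpe1-11 and 889.8 ± 75.6 FPKM in nrpd1-3, 13.8-fold lower. GSTU4, of the tau class, had 2.75, 4.27 and 3.31 FPKM in nrpe1-11 and 25.3, 25 and 25.5 FPKM in nrpd1-3 (-2.58).

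Sulfur assimilation supplies the cysteine from which glutathione is made. Of its 17 tested genes 12 fell, 1 rose and 4 were not called (median -0.89). Of the 16 that reached 1 FPKM in both genotypes, 11 fell and 1 rose. APR1, which reduces activated sulfate, had 14, 12.4 and 12.5 FPKM in nrpe1-11 and 46.8, 39.5 and 44.2 FPKM in nrpd1-3 (-1.67, SE 0.11, adjusted p = 4e-08 in limma). APR3 fell by 1.56, and APS1, an ATP sulfurylase, had 61.9, 58.9 and 67.7 FPKM in nrpe1-11 and 123, 127 and 120 FPKM in nrpd1-3 (-0.97). The phenylpropanoid entry enzymes PAL1 (-1.86) and PAL2 (-1.24) and the chalcone synthase gene CHS (-1.75) were among 4 of 10 flavonoid pathway genes that fell, with 0 higher. CHS had 1.19, 1.61 and 1.52 FPKM in nrpe1-11 and 6.74, 7.29 and 7.46 FPKM in nrpd1-3. CHS, APR1 and APR3 overlap loci on the opposite strand.

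**Figure D4:**
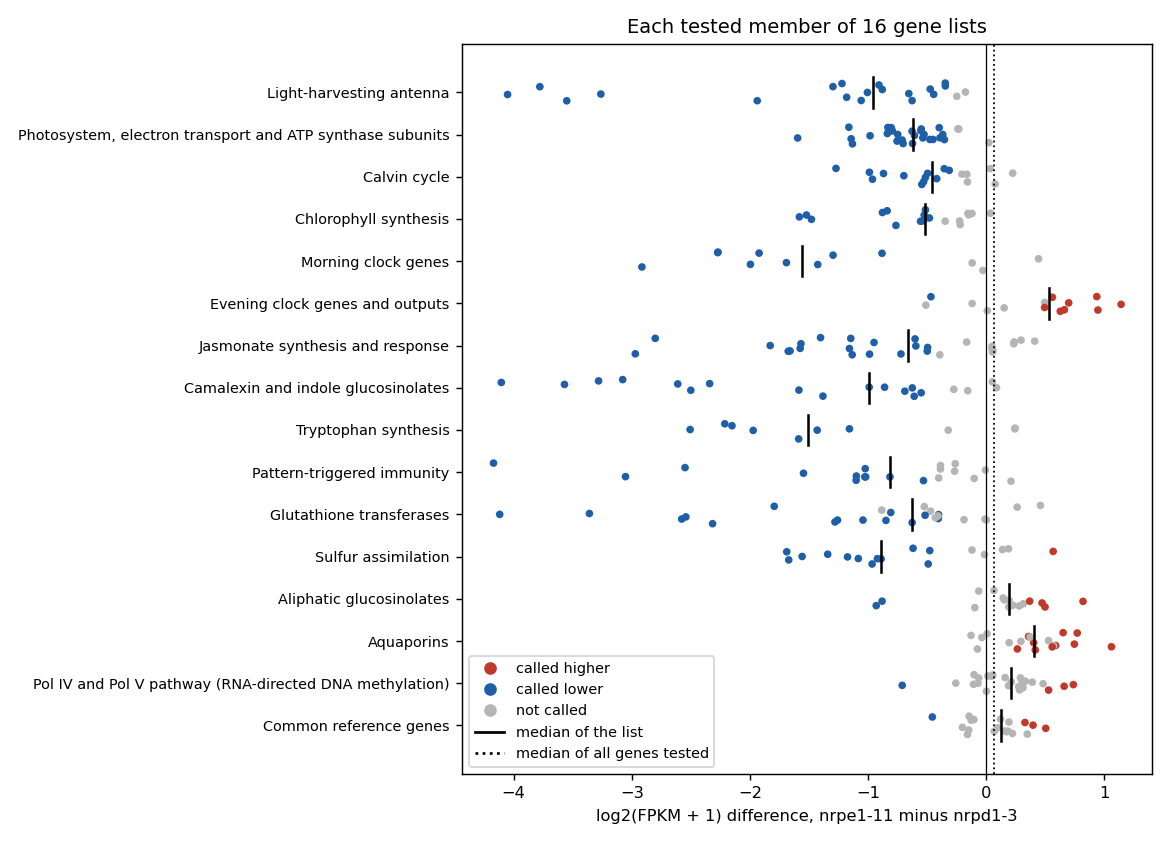
Log2(FPKM + 1) difference, nrpe1-11 minus nrpd1-3 (horizontal axis), of each tested member (points) of 16 gene lists (rows); red was called higher, blue lower, grey not called, the black bar is the list's median and the dotted line the median of all genes, 0.07. The medians of morning and evening clock genes lie on opposite sides, at -1.56 and 0.53, with members up to 0.44 and down to -0.51.

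Abiotic stress and nutrient genes gave smaller and mixed counts. Over all genes, 8.57% were called lower and 6.44% higher. The phosphate list, with 18.8% called, was near the 15.0% of all genes. Of 14 cold and drought genes 4 fell and 2 rose, with P5CS1, an enzyme of proline synthesis, at -1.31, RD22 at -0.85 and KIN2 at -0.97. A locus on the opposite strand overlaps P5CS1, and the KIN2 call was lost without nrpe1-11 replicate 2 or nrpd1-3 replicate 1 or 2 (-0.83 to -0.81), and without the filter (adjusted p = 0.0719 in limma). Of 17 heat-shock and folding genes 5 fell and 2 rose. Among these, 1 fall passed the filter through nrpd1-3 alone and 1 rise through nrpe1-11 alone, so their directions were fixed. The endoplasmic-reticulum chaperone genes BIP1 and BIP2, close copies, summed to 63.3 ± 4.96 FPKM in nrpe1-11 and 169 ± 5.44 FPKM in nrpd1-3, 2.67-fold lower, and HSFB1 fell by 0.51. Iron homeostasis had 2 of 16 genes higher and 2 lower. The small peptide gene IMA3, a signal of iron shortage, had 0, 0.297 and 0.513 FPKM in nrpe1-11 and 4.64, 2.23 and 3.42 FPKM in nrpd1-3 (-1.79). IMA3 overlaps CYP71A13 on the opposite strand, itself among the largest falls, so the reads of the pair cannot be told apart. The ferritin gene FER3 (0.61) and the iron-uptake regulator FIT (0.65) rose. The FER3 call was lost without nrpe1-11 replicate 1 or 3 or nrpd1-3 replicate 1 or 2 (0.44 to 0.62), and the FIT call without nrpe1-11 replicate 2 or 3 or nrpd1-3 replicate 1 (0.50 to 0.67). Without the filter both were lost (adjusted p = 0.0720 for FER3 and 0.0769 for FIT in limma), and FIT also with median-ratio rescaling (adjusted p = 0.0648). Of 16 phosphate genes 1 rose, the exporter PHO1 (0.45), and 2 fell, PHT1;4 (-0.54, adjusted p = 0.0451 in limma) and SQD2 (-0.40, adjusted p = 0.0468), both close to the threshold. Both calls were lost without any 1 library of nrpe1-11 or nrpd1-3 and without Col-0 replicate 1 or 3, at -0.61 to -0.43 for PHT1;4 and -0.46 to -0.32 for SQD2. Both were also lost with 6 libraries in the fit (adjusted p = 0.0589 and 0.0502 in limma), and PHT1;4 with quantile normalization (adjusted p = 0.0506).

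Growth and hormone lists changed less. Beside them, 15.0% of all genes were called, 6.44% higher and 8.57% lower. Of 19 auxin genes 4 fell and 1 rose: IAA1, an early-induced repressor, had 2.79, 4.74 and 4.08 FPKM in nrpe1-11 and 11.2, 8.79 and 11.2 FPKM in nrpd1-3 (-1.24, adjusted p = 0.000145 in limma), GH3.3 fell by 0.91 and the receptor gene TIR1 rose by 0.53. Of 13 cytokinin response genes 3 rose and 0 fell, all response regulators of the type that cytokinin induces. ARR4 had 27.3, 28.1 and 29.7 FPKM in nrpe1-11 and 14.8, 14.4 and 20.4 FPKM in nrpd1-3 (0.76), and ARR7 (0.66) and ARR16 (0.79) were the others. The ARR16 call was lost without nrpe1-11 replicate 1 or 3 or nrpd1-3 replicate 1 or 3 (0.69 to 0.83), with a pseudocount of 0.1 (adjusted p = 0.0822 in limma) and without the filter (adjusted p = 0.0541). Cell cycle and histone genes had 1 of 20 higher, the D-type cyclin CYCD3;1 (0.81, with a locus on the same strand), and 0 lower. Of 15 wax and cutin genes 2 rose and 2 fell, with CER6 at 0.41, KCS1 at -0.66 and CER1 at -0.98.

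Sugar-related genes moved both ways, beside 6.44% of all genes called higher and 8.57% lower. Of 20 senescence and sugar-starvation genes 7 rose and 3 fell (median 0.21). SWEET11, a sucrose exporter of the phloem, had 93.5, 92.4 and 83.7 FPKM in nrpe1-11 and 50.4, 45.9 and 50.9 FPKM in nrpd1-3 (0.86, adjusted p = 1.97e-05 in limma). DIN11, a dioxygenase gene, had 7.27, 8.07 and 5.28 FPKM in nrpe1-11 and 70.3, 64.2 and 73.5 FPKM in nrpd1-3 (-3.17, adjusted p = 2.82e-10 in limma), and SAG13 fell by 2.39. Of 23 starch genes 6 fell and 1 rose, with the ADP-glucose pyrophosphorylase genes APL1 at -0.54 and ADG1 at -0.52 and the starch synthase gene GBSS1 at -0.83. APL1 overlaps a locus on the opposite strand.

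About as many aquaporin genes were higher as were not called. These channels carry water across the plasma membrane (PIP) and the vacuole membrane (TIP). Of 19 tested members 10 rose, 0 fell and 9 were not called (median 0.40), with differences down to -0.13 for PIP1B. Over all genes 6.44% were called higher, but 24.1% at a mean of 50 to 100 FPKM and 23.6% at 100 FPKM or more. The genes named below lie at such levels. PIP1;5 had 124, 133 and 141 FPKM in nrpe1-11, against 72.5, 76.9 and 83.1 FPKM in nrpd1-3 and 79.0 ± 2.37 FPKM in Col-0 (0.77, SE 0.09, adjusted p = 1.17e-05 in limma). PIP2;6 had 122, 117 and 126 FPKM in nrpe1-11 and 78.8, 80.4 and 72.7 FPKM in nrpd1-3 (0.65). GAMMA-TIP had 135, 125 and 132 FPKM in nrpe1-11 and 93, 87.5 and 85 FPKM in nrpd1-3 (0.56). The groups did not overlap in any of the 3.

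Of 12 tested root marker genes 3 rose, 0 fell and 9 were not called (median 0.22), among them IRT1 at -0.66. The nitrate transporter gene NRT1.1 had 84.2, 76.7 and 85.4 FPKM in nrpe1-11 and 47.8, 50.2 and 42.8 FPKM in nrpd1-3 (0.80, adjusted p = 1.61e-05 in limma), PHO1 rose as given above, and the root-hair gene EXPA7 rose by 0.87. A gene on the opposite strand overlaps EXPA7, whose call was lost without nrpe1-11 replicate 3 (0.85) or nrpd1-3 replicate 3 (0.78), and without the filter (adjusted p = 0.0518 in limma). The part of the higher root marker sums in the aquaporin differences was not tested. Genes often used as references gave 3 of 19 higher and 1 lower, 21.1% called, against 15.0% of all genes. Among all genes with a mean of 100 FPKM or more, as ACT2, ACT8 and GAPC1 have, 45.5% were called. ACT2 had 335, 331 and 322 FPKM in nrpe1-11 and 255, 243 and 252 FPKM in nrpd1-3 (0.40, adjusted p = 0.00222 in limma), ACT8 rose by 0.50 and GAPC1 fell by 0.46. Differences of this size are therefore also found among genes used for normalization. PI and SEP3, the 2 flower markers that were tested, were not called (PI 0.57, 95% interval -0.09 to 1.23, adjusted p = 0.250 in limma).

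Called genes lay side by side in several places. Runs of at least 4 neighbouring tested genes that were all called in 1 direction numbered 11, and all 11 were lower in nrpe1-11. Some members passed the filter through nrpd1-3 alone, so their direction was fixed, and a run that holds them could only be lower. They include CRK5, CRK7, CRK12, CRK14, CRK36, CRK39, AT1G24140, AT1G72920, AT1G26410, AT4G12500, WRKY30 and SQP1. The longest run held 11 genes on chromosome 4, mostly cysteine-rich receptor-like kinases (CRK), with differences of -2.45 to -0.68. In it CRK11 averaged 3.1 ± 0.149 FPKM in nrpe1-11 and 13.3 ± 1.75 FPKM in nrpd1-3, and CRK14 0.527 ± 0.309 FPKM in nrpe1-11 and 5.12 ± 0.403 FPKM in nrpd1-3. Over the genome 16 of 28 tested CRK genes fell (57.1%) and 0 rose, against 8.57% lower and 6.44% higher of all genes. The falls include the CRK genes whose direction the filter fixed. Of the other runs, 1 held 5 TIR-domain genes (AT1G72900 to AT1G72940, differences of -2.38 to -1.13), 1 the indole glucosinolate methyltransferases IGMT1 to IGMT4 (-3.28 to -0.55) and 1 berberine-bridge-enzyme genes from AT1G26380 to AT1G26420 (-3.93 to -1.05). Another held AZI1, EARLI1, AT4G12490 and AT4G12500, where EARLI1 averaged 34.7 ± 1.89 FPKM in nrpe1-11 and 174 ± 14.1 FPKM in nrpd1-3. CRK11 and EARLI1 overlap loci on the opposite strand. Most of these runs are tandem copies, which share sequence and may share reads. Run members and families were picked after the values were seen.

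**Figure D5:**
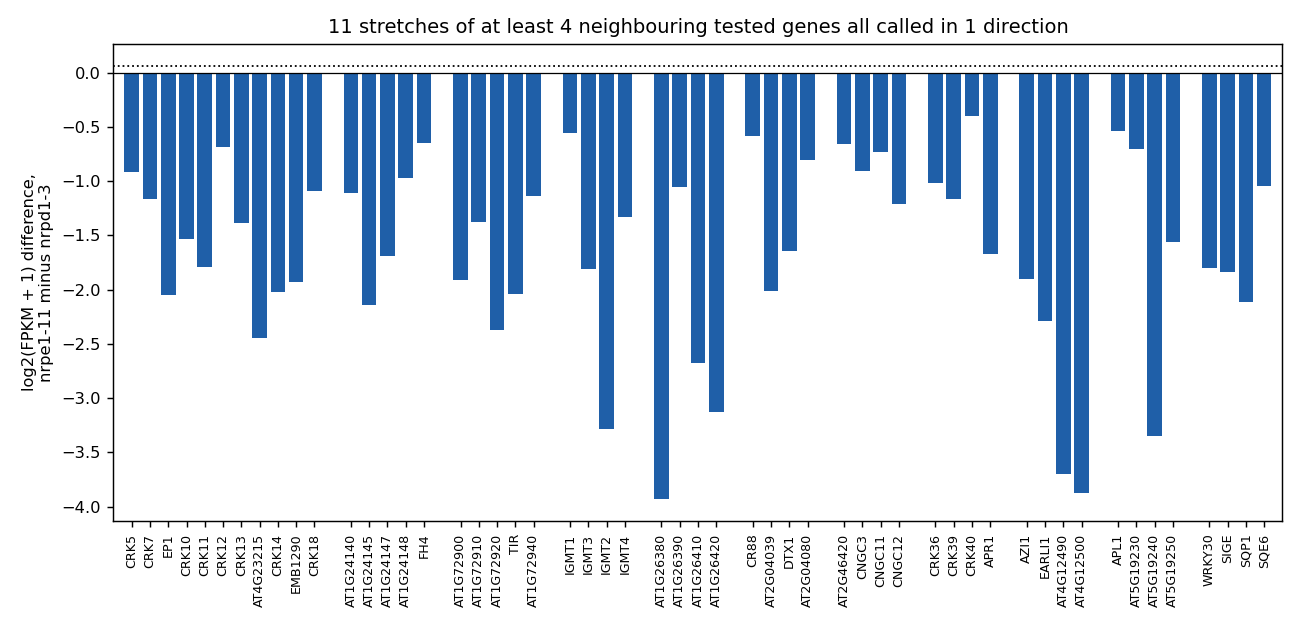
Log2(FPKM + 1) difference, nrpe1-11 minus nrpd1-3 (vertical axis, bars from 0), of each gene in the 11 runs of at least 4 neighbouring tested genes called in 1 direction, in order along the chromosome within a run, with gaps between runs; the dotted line is the median of all genes, 0.07. All bars point down, the deepest at -3.93 for AT1G26380, and the filter fixed the direction of some.

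Families by annotated product showed the same direction in some cases. Of 18 tested berberine-bridge-enzyme genes 11 fell (61.1%) and 0 rose, and of 30 MATE transporter genes 10 fell (33.3%) and 1 rose. Among 315 genes whose product text names a ribosomal protein, 29 rose and 5 fell (9.21% and 1.59%), with a median of 0.10. Over all genes 6.44% were called higher and 8.57% lower. These families were also chosen after the values were seen.

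Noncoding genes rose more often than they fell. Of 270 tested genes typed as ncRNA, lncRNA or misc_RNA, 30 were higher (11.1%) and 7 lower (2.59%), against 6.44% and 8.57% of all genes. By type, 19.8% of 81 ncRNA and 11.5% of 61 misc_RNA genes were higher. Of 128 lncRNA genes 5.47% were higher, below the share of all genes. Of all 270 noncoding genes, 106 had no overlapping locus, and of these 18 were higher and 5 lower. AT5G24735 had 91.1, 86.3 and 87.8 FPKM in nrpe1-11, against 41.6, 45.8 and 47.4 FPKM in nrpd1-3 (0.96, SE 0.12, adjusted p = 4.56e-05 in limma). AT4G04223 had 61.6, 57.0 and 67.1 FPKM in nrpe1-11 and 32.2, 31.4 and 30.7 FPKM in nrpd1-3 (0.95). AT4G13495, which overlaps a locus on the same strand, went the other way, with 38.3, 47.9 and 44.8 FPKM in nrpe1-11 and 96.9, 84.2 and 90.9 FPKM in nrpd1-3 (-1.04). These 3 were chosen after their values were seen. The libraries were made from polyadenylated RNA, so transcripts without a poly(A) tail are measured poorly or not at all.

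Some genes were listed at 0 in 1 genotype only. Of the tested genes, 17 were listed at 0 in all nrpe1-11 libraries, and 0 in all nrpd1-3 libraries. Such genes passed the filter through nrpd1-3 alone, so their direction was fixed. AT1G51920, of unknown function, had 8.12, 6.33 and 5.43 FPKM in nrpd1-3 and 7.34, 1.61 and 3.86 FPKM in Col-0. The peroxidase gene AT1G14550 had 4.7, 2.32 and 4.12 FPKM in nrpd1-3 and 3.94, 3.18 and 2.47 FPKM in Col-0. AT4G37290 had 5.44, 2.59 and 3.63 FPKM in nrpd1-3, AT1G14250, a nucleoside phosphatase gene, 2.6, 2.13 and 2.4 FPKM, and the noncoding RNA AT1G06983 5.54, 1.7 and 4.54 FPKM. The last was also listed at 0 in 1 Col-0 library. No fold is given against a group at 0.

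The motifs of the promoters shown above were counted in the 250 bases before each of 17786 tested genes. The W-box was present in 39.7% of the promoters of genes called lower, in 24.4% of those called higher and in 28.4% of all promoters. FRK1 has it at -47 to -42 and -29 to -24 from the start site, and AT2G43620 has it at -108 to -103, -78 to -73 and -72 to -67. By list it stood in 13 of 19 pattern-triggered immunity promoters, 15 of 25 glutathione transferase promoters, 11 of 19 touch and stress promoters and 6 of 10 tryptophan synthesis promoters, but in 2 of 20 antenna promoters. Other lists with falls were below the 28.4% of all promoters, with 3 of 17 for sulfur assimilation, 4 of 22 for salicylic acid, 2 of 12 for morning clock and 6 of 23 for NLR genes. The methylation pathway list, with 1 gene lower, had the W-box in 12 of 25. The G-box was present in 10.7% of promoters of genes called lower, 6.90% of those called higher and 7.17% of all, and in 6 of 12 morning clock promoters. CCA1 has it at -193 to -188, and LNK3 at -171 to -166 and -141 to -136. BOA also holds a G-box, left in lower case above. The evening element was in 3.93% of promoters of genes called lower, 3.93% of those called higher and 2.50% of all. It stood in 7 of 14 evening clock promoters and 0 of 12 morning ones. GRP7 has it at -76 to -68, -55 to -47 and -31 to -23, and BOA at -43 to -35. With only windows free of other loci the W-box shares were 40.7% for genes called lower, 22.9% for those called higher and 28.9% for all 12106. A match describes the letters of the window only, and binding was not measured.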

How the data were processed

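Polyadenylated RNA of 2-week-old seedlings was sequenced in 9 libraries, 3 per genotype, and the 6 libraries of nrpe1-11 and nrpd1-3 were compared. The authors deposited FPKM per gene in 1 table, and these FPKM values were the starting point. Per the submitters' processing notes, fastp 0.23.2, HISAT2 2.2.1, StringTie 2.1.7 and TAIR10 were used, with settings not given in the sources used here. Gene types, neighbours and promoters came from the RefSeq TAIR10.1 annotation and genome, in which all 37898 gene identifiers were found. A gene listed on 32 lines was kept once, by the line above 0 in every library.

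With limma 3.58.1 (R 4.3.3), a linear model estimated a mean of log2(FPKM + 1) for each genotype, moderated by an empirical Bayes trend (14.96 degrees of freedom, two-sided). All 9 libraries entered so that they share 1 estimate of the spread. Tables and figures used python 3.11.15. Members and gene lists were chosen with earlier results of these data known. Lists are described by counts and medians, without a set test. The genes named were NRPD1 and NRPE1, the 10 largest called differences without overlap in each direction, up to 3 called members of each list with the smallest adjusted p (or 1 value), and the 5 highest genes listed at 0 in 1 genotype. Others are marked as chosen later.

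On simulated data with 17375 genes, nrpe1-11 against nrpd1-3 gave calls for 16 of 64 genes with a log2 change of 0.5. The calls were 66 of 72 for a change of 1 and 64 of 64 for a change of 2. The changed genes were not drawn from low ones, and 5 of 17175 unchanged genes were called. The sources used here do not give depth. The median SD of log2(FPKM + 1) within a genotype was 0.16 in nrpe1-11 and 0.17 in nrpd1-3. Alternatives were another pseudocount, other filters, 3 rescalings, a fit of 6 libraries, a replicate block, robust empirical Bayes, a 2-fold threshold and each library left out.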

Additional observations from a re-analysis of the deposited data

How the results depend on the processing

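The 2670 called genes (1145 higher and 1525 lower in nrpe1-11) numbered 1984 to 3342 when 1 library was left out, with 682 to 1595 higher and 1204 to 1747 lower. The fewest higher calls came without nrpe1-11 replicate 3, and the most without Col-0 replicate 2. Rescaling to the protein-coding sum gave 1806 higher and 1654 lower, median-ratio rescaling 1075 and 1993, quantile normalization 1519 and 1798. A 2-fold threshold left 682 called, 60 higher and 622 lower, since fewer genes pass it by construction. With a replicate block 3003 genes were called, 1369 higher and 1634 lower, and 2630 were shared with the 2670. Same-numbered libraries of nrpe1-11 and nrpd1-3 did not deviate together (correlations of 0.0037, -0.0229 and -0.066). Whether they did so with Col-0 was not tested. Replicate 2 had the highest ribosomal RNA share in nrpd1-3 (19.7%) and in Col-0 (21.4%), but not in nrpe1-11. The labels do not say that a number marks a shared batch, so the numbers were not taken as pairs. For named genes the 2-fold threshold was left out of the settings. A gene not tested in a setting, such as ROS1 with a mean of at least 5 FPKM required, was not counted there. Within these limits, of 126 named genes, 0 reversed direction in 18 settings, and 11 lost their call in at least 1. These include NRPD1 with a pseudocount of 0.1 (1.24, adjusted p = 0.066 in limma). With a mean of at least 5 FPKM required, fewer genes were tested, and 5 morning clock, 11 jasmonate, 7 WRKY, 7 pattern-triggered immunity and 5 NLR genes were called lower. Unknown read numbers limit what can be said of genes near 1 FPKM.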
